A study of Homo sapiens with 24 samples.

Results

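The genes described here are 9 factors, inhibitors and feedback targets of NF-kappaB signalling, namely RELA, RELB, NFKB1, NFKB2, NFKBIA, NFKBIE, NFKBIZ, TNFAIP3 and BIRC3. They were taken by symbol, each matched to 1 Ensembl identifier, from the 60671 genes of the deposited count tables. The rule that chose them names CARHSP1, an RNA-binding cold shock domain protein known to stabilise TNF mRNA, whose knockdown is 1 of the conditions. Polyadenylated RNA was sequenced in 24 libraries, 3 for each of 8 groups. In the embryonic stem cell line H1, all cells labelled as treated with doxycycline, the groups were primed cells with CARHSP1 knock down or a Nontargeting control, naive cells with ZNF8 knock down or a Nontargeting control, and ectoderm differentiated to Day 2 with ZIC2 knock down or a Nontargeting control. In the embryonic stem cell line H9, the groups were primed and naive cells, with no genotype or doxycycline label. No label describes the knockdown system, the number of targeting sequences or clones, or whether replicates came from separate cultures. A p-value therefore covers library-to-library spread alone, which may be technical.

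NF-kappaB is a family of dimeric transcription factors. In resting cells the dimers are held in the cytoplasm by IkappaB proteins, and signals from receptors for TNF, interleukin-1 or microbial products lead to IkappaB phosphorylation and degradation, which frees RELA with the p50 product of NFKB1. A slower, noncanonical route processes the NFKB2 precursor to p52, which pairs with RELB. Several of the genes that NF-kappaB switches on, among them NFKBIA, TNFAIP3, NFKB2 and BIRC3, act back on the pathway. Human pluripotent stem cells are known for a weak response to inflammatory ligands.

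Promoter sequence is shown first, because the genes were grouped as factors and feedback targets that NF-kappaB itself can bind. RefSeq promoter windows on GRCh38.p14 were available for 7 of the 9 genes, the exceptions being NFKBIE and RELB. The 250 bases before each start were searched on both strands for the kappaB consensus. A match was found for 6 of the 7 genes (85.7%), against 6.3% of the 27305 genes with a window, and RELA had none in its 2 windows. A gene counted if any of its windows held a match. The second window of NFKB1 and the first of NFKB2 held none. Because the genes were grouped as targets that NF-kappaB can bind, the contrast with all genes is not a test. The stretches below run 5′ to 3′ on the strand of the gene, with the matching bases in capitals. A match is a description of these letters and does not show that a factor was bound.
TNFAIP3, chr6:137867188-137867217: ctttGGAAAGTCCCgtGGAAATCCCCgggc
NFKBIA, chr14:35404811-35404840: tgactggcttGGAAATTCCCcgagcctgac
NFKBIZ, chr3:101827757-101827786: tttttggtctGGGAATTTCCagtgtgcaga
NFKB1, chr4:102501300-102501329: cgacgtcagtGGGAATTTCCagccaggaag
NFKB2, chr10:102394462-102394491: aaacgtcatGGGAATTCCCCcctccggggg
BIRC3, chr11:102317275-102317304: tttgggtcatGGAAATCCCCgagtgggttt

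The identical decamer GGGAATTTCC stood 49 to 40 bases before the start of NFKB1 and 223 to 214 bases before the first start of NFKBIZ. TNFAIP3 held 2 adjacent matches, 67 to 46 bases before its start. The capitals of the NFKB2 stretch are 2 overlapping matches on opposite strands, and 3 further matches lay elsewhere in its windows. BIRC3 had 2 matches, of which the one farther from the start is shown.

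AU-rich elements in 3′ untranslated regions are binding sites of proteins that set mRNA decay, and the TNF mRNA is the textbook example. The nonamer TTATTTATT was searched in the 3′ untranslated region of the longest coding GENCODE 29 transcript of each gene. TNFAIP3 held 1 copy, and none was found in NFKBIZ, NFKBIA, NFKBIE, NFKB1, NFKB2, RELA or RELB. Of 13286 genes tested in the CARHSP1 comparison that have such a region, 9.4% held a copy. The TNFAIP3 site is printed with the nonamer in capitals.
TNFAIP3, nonamer from base 989 of 1992: gtaattcactTTATTTATTttattacaaa

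The shorter pentamer ATTTA, present in 73.3% of those genes, occurred 5 times in TNFAIP3, 3 times in NFKBIZ, NFKBIA and NFKB1 and once in NFKB2. It was not found in NFKBIE, RELA or RELB.

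Libraries held 6756704 to 20773963 counts. Levels are given as CPM, the usual count relative to library size, scaled by the trimmed mean of M-values (TMM), with SD over the 3 libraries of a group. TNFAIP3 overlaps an antisense gene, AL357060.1, and RELA a long noncoding RNA gene on the opposite strand, AP001362.2. How the counting treated strand is not stated, so reads of such pairs may not be told apart. The partners held 308 and 211 counts in the 18 H1 libraries, against 3871 for TNFAIP3 and 5280 for RELA.

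The labelled states were checked against markers. POU5F1, a core pluripotency factor, stood at 1400 CPM in primed H1 controls. KLF17, specific to naive cells, stood at 10.7 CPM in naive H1 controls and at 0 in primed ones, but at 0.0692 CPM in naive H9 cells. There DPPA5 (29.2 CPM), DPPA3 (17.0) and DNMT3L (12.9) were present. Of the same list, KLF5 had 13.1 CPM in naive H9 cells against 189 in naive H1 controls. ARGFX had 0.0301 CPM in naive and 0.0422 CPM in primed H9 cells. Ectoderm controls held SIX3 at 191 and OTX2 at 558 CPM, with PAX6 at 2.23 and LHX2 at 0.12. Of the blood cell markers PTPRC, CD14 and CD68, no group mean was above 0.149 CPM. Others of the same list stood higher in some groups. ITGAM had 1.79 CPM in primed H9 cells, CSF1R 0.667 and TYROBP 0.313 in naive H1 controls, and LYZ 0.221 in primed H1 controls. A further marker of that list is not reported here, so low levels of the first-named genes do not speak for the whole list.

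Between genes, levels were compared per kilobase of the deposited gene length. In primed H1 controls NFKBIA, which encodes the IkappaB alpha inhibitor, led with 10.3 CPM per kb, followed by NFKB2 with 5.27, and TNFAIP3 was near the bottom with 1.64. In naive H1 controls the order changed. There NFKB2 reached 55.3 CPM per kb, above NFKBIA with 20.1 and TNFAIP3 with 8.53. NFKB2 was also first in naive cells with ZNF8 knockdown, at 65.8 CPM per kb, and in naive H9 cells, at 15.1 against 11.1 CPM per kb for NFKBIA. NFKBIA led in the other 5 groups.

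On GRCh38 with GENCODE 29, the genes that the results turn on most are NFKBIZ (ENSG00000144802) at chr3:101827991-101861022, TNFAIP3 (ENSG00000118503) at chr6:137867188-137883312 and NFKB2 (ENSG00000077150) at chr10:102394110-102402529, all on the plus strand. NFKBIA (ENSG00000100906) lies at chr14:35401511-35404749 on the minus strand, RELB (ENSG00000104856) at chr19:45001430-45038198 and NFKB1 (ENSG00000109320) at chr4:102501329-102617302 on the plus strand. Counts were summed over whole genes, so no single exon or untranslated region is resolved.

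**Figure D1:**
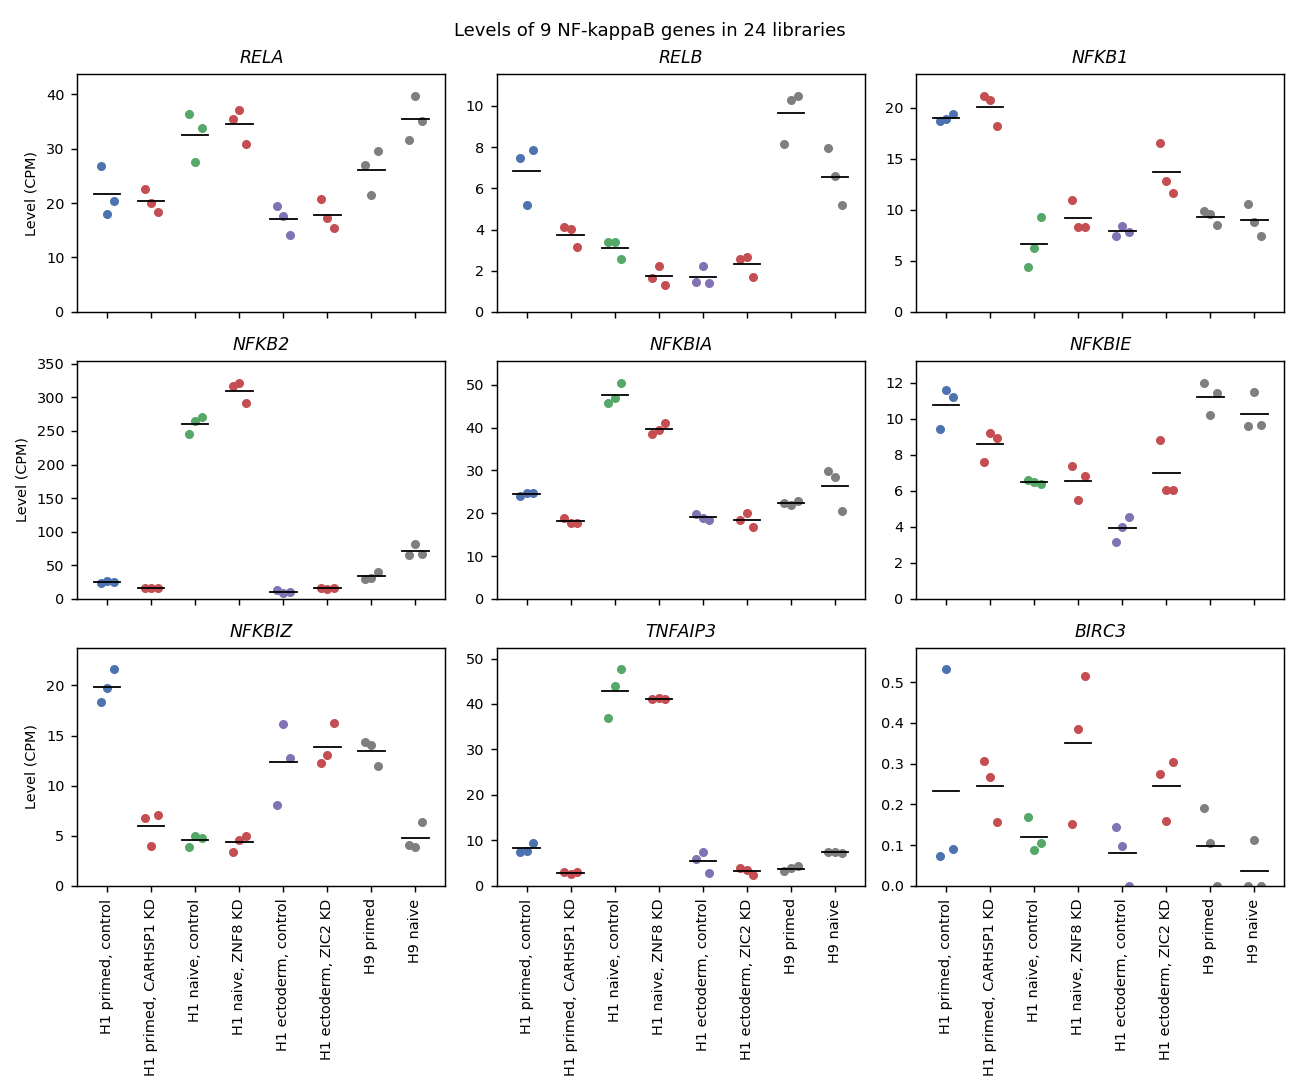
Levels (y axis, CPM, linear from 0, separate scale for each gene) of the 9 genes in 8 groups (x axis). Points are single libraries and bars are means of 3 libraries. NFKB2, TNFAIP3 and NFKBIA stand highest in the naive H1 groups, NFKBIZ stands highest in primed H1 controls, and BIRC3 stays below 0.6 CPM.

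BIRC3, which encodes the ubiquitin ligase cIAP2, was hardly detected. It had 49 counts in all 24 libraries together, at most 6 in a library and 0 in 4 of them. It passed the low-count filter in no comparison, so 8 of the 9 genes were tested throughout.

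The first question was whether knockdown of CARHSP1 changed these transcripts in primed cells. CARHSP1 itself was at 152, 148 and 147 CPM in the controls and at 20.8, 18.1 and 18.4 in the knockdown, a log2 change of −2.97 (SE 0.07; edgeR adjusted p = 8.36e-29). Of the 8 NF-kappaB genes tested, 5 fell and none rose, where 20.2% of all genes tested passed, 9.87% lower and 10.3% higher. The 5 were the feedback inhibitors TNFAIP3 and NFKBIA, the nuclear IkappaB NFKBIZ and the noncanonical subunits RELB and NFKB2. Their median log2 change, over all 8 tested, was −0.53, beside 0.0 over all genes. Libraries of the 2 groups did not overlap for 6 of the 8, the 5 that fell and NFKBIE, against 34.1% of all genes.

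NFKBIZ, an atypical nuclear IkappaB that co-activates a subset of NF-kappaB targets, was at 18.3, 19.7 and 21.6 CPM in controls and at 6.73, 4.01 and 7.11 CPM after knockdown. All 3 knockdown libraries were far below the lowest control. The fall was 3.25-fold (log2 −1.70, SE 0.17; edgeR adjusted p = 3.08e-10). TNFAIP3 encodes A20, a ubiquitin-editing enzyme that shuts off signalling downstream of the TNF receptor. It stood at 7.48, 7.7 and 9.49 CPM in controls and at 2.98, 2.68 and 2.93 CPM in the knockdown, again with a wide gap between the groups. Its fall was 2.86-fold (log2 −1.52, SE 0.23; adjusted p = 3.61e-06) and rested on 265 counts in controls and 125 in the deeper knockdown libraries.

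NFKBIA fell less, from 24.1, 24.6 and 24.7 CPM to 18.9, 17.6 and 17.8 CPM (log2 −0.43, SE 0.11; edgeR adjusted p = 0.00432). The libraries were tight in both groups, and the lowest control lay above the highest knockdown library. The other cytoplasmic inhibitor tested, NFKBIE or IkappaB epsilon, had 9.4, 11.6 and 11.2 CPM in controls and 7.57, 9.19 and 8.94 in the knockdown. Its groups did not overlap either, but it did not pass (log2 −0.31, 95% interval −0.65 to 0.03; adjusted p = 0.196).

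Among the subunits, the 2 of the noncanonical pathway were lower. NFKB2, the p100/p52 precursor, went from 23.6, 26.3 and 24.6 CPM to 15.5, 16.6 and 15.8 CPM (log2 −0.63, SE 0.11; edgeR adjusted p = 8.87e-05). RELB, its partner, was at 7.48, 5.18 and 7.88 CPM in controls, and its knockdown libraries all lay below these, at 4.13, 4.01 and 3.14 CPM (log2 −0.90, SE 0.23; adjusted p = 0.00415). The canonical pair did not pass. NFKB1 had 19.0 CPM in controls and 20.1 CPM in the knockdown, with a 95% interval of the log2 change from −0.17 to 0.31. RELA had 21.7 and 20.3 CPM, with an interval from −0.38 to 0.13, and its control libraries, at 26.8, 17.9 and 20.3 CPM, spanned all 3 knockdown libraries. These intervals exclude a log2 fall as large as that of NFKB2 for both genes.

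Each of the 5 calls held under every alternative run, including DESeq2 and leaving out each library. Over 15576 genes the log2 change ran against GC content (Spearman −0.33). Of the genes that fell, NFKB2 (62.4% GC) and RELB (65.4%) are the GC-rich ones. With trends in GC content and length removed, NFKB2 was at log2 −0.46 and RELB at −0.71, and NFKBIZ, TNFAIP3 and NFKBIA were at −1.75, −1.54 and −0.44.

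TNF itself could not be followed. It had 0 counts in all 6 primed H1 libraries, which allows up to 0.0957 CPM over the controls and 0.0701 CPM over the knockdown group, and 6 counts in all 24 libraries. Of other ligands, IL1B had 9 counts and LTA 15 in the whole series. LTB, which signals through the lymphotoxin beta receptor, had 30 counts in primed controls (0.989 ± 0.409 CPM, n = 3) and 7 in the knockdown (0.167 ± 0.121 CPM, n = 3), too few to be tested. Limits on a count of 0 cover counting error only.

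**Figure D2:**
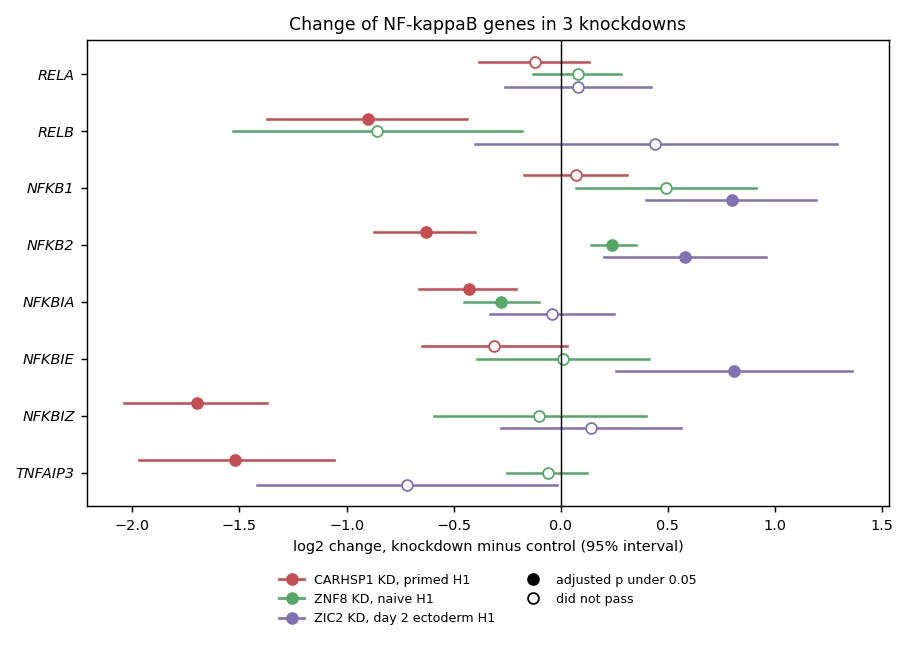
Log2 change (x axis, knockdown minus its own control) of the 8 tested genes in 3 knockdowns, with 95% intervals from 3 libraries a group. Filled points passed an adjusted p of 0.05. NFKBIZ and TNFAIP3 lie beyond −1.5 in the CARHSP1 knockdown, while NFKB1, NFKB2 and NFKBIE lie above 0 in the ZIC2 knockdown.

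The rest of the pathway in the CARHSP1 knockdown is given list by list, and the lists were not tested against each other. Each count is to be read beside the share over all genes, of which 20.2% passed, 9.87% lower and 10.3% higher. Of 22 upstream kinases, adaptors and ubiquitin enzymes tested, none rose and 1 fell, the linear ubiquitin ligase subunit SHARPIN (log2 −0.32). None of 14 ligands and receptors passed. Of 17 other induced targets, 5 fell and 1 rose. Those named by the smallest adjusted p were the gelatinase MMP9 (9.23 to 4.61 CPM, log2 −0.97), the stress genes GADD45B (log2 −0.58) and IER3 (log2 −0.60), and the chemokine CXCL3 (log2 −1.07).

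Among 10 other negative regulators, 2 fell and 1 rose. TNIP1, an adaptor that binds A20, went from 63.5 ± 2.52 to 42.3 ± 1.99 CPM (n = 3 each; log2 −0.58, edgeR adjusted p = 3.61e-07), and ZC3H12A, the RNase Regnase-1, from 15.4 ± 0.772 to 8.22 ± 1.89 CPM (log2 −0.92, adjusted p = 4.64e-05). TAX1BP1, another A20 adaptor, rose by log2 0.17. Of the 4 remaining family members 1 fell, the nuclear IkappaB NFKBID (log2 −0.71, adjusted p = 0.0374). Of 14 AU-rich element and decay factors, which include ZC3H12A and the targeted CARHSP1, 4 fell and 2 rose. ZFP36L2, which promotes decay of AU-rich mRNAs, fell by 0.57 on the log2 scale, and HNRNPD (AUF1) rose by log2 0.35.

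**Figure D3:**
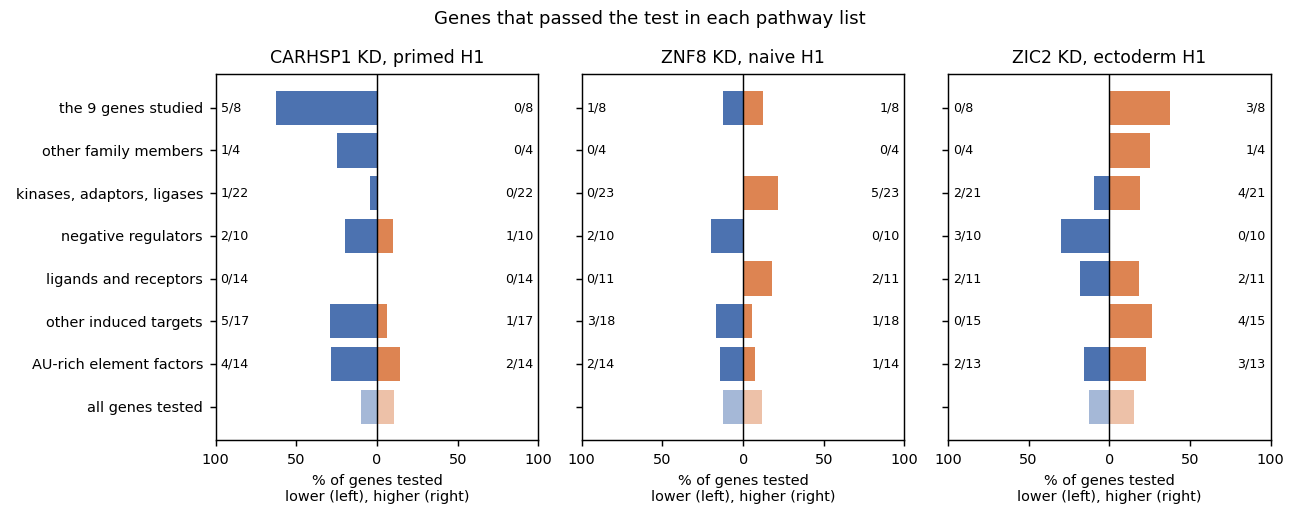
Share of tested genes that passed an adjusted p of 0.05 in each pathway list (x axis, percent; lower to the left, higher to the right) for 3 knockdowns, with the number passed over the number tested; pale bars give all genes tested. The 9 genes studied have 5 of 8 lower in the CARHSP1 knockdown, beside 9.87% of all genes. They have 3 of 8 higher in the ZIC2 knockdown, beside 15.3% of all genes, and 1 of 8 with GC and length trends removed.

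Markers of other cells or states also differed in the CARHSP1 comparison. The summed endothelial list (8 genes, PECAM1 and EMCN at or near 0) lay between 317 and 326 CPM in controls and between 159 and 173 CPM in the knockdown, mostly through KDR. The fibroblast list (9 genes, DCN, LUM and COL3A1 at or near 0) lay between 685 and 702 and between 591 and 627 CPM, and the naive list (8 genes, KLF17 and ARGFX at or near 0) between 31.3 and 44.5 and between 27.5 and 30.3 CPM. The primed list (8 genes, none at 0) was higher in the knockdown, between 2740 and 2800 and between 2880 and 2980 CPM. Their part in the NF-kappaB changes was not tested. In bulk RNA, fewer cells of a type and less RNA per cell cannot be told apart.

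In naive cells with ZNF8 knockdown, NFKB2 rose and NFKBIA fell. ZNF8, a zinc finger protein, was at 15.2, 15.4 and 17.6 CPM in the knockdown and at 23.2, 18.6 and 17.6 CPM in controls. The difference in the targeted mRNA did not pass (log2 −0.32; edgeR adjusted p = 0.0664). ZNF8 was also lower in the CARHSP1 knockdown of primed cells (log2 −0.29, edgeR adjusted p = 0.0379). CARHSP1 was lower in the ZNF8 knockdown (log2 −0.25, adjusted p = 0.00281) and in the ZIC2 knockdown (log2 −0.20, adjusted p = 0.0215). Of the 8 NF-kappaB genes tested with ZNF8 knockdown, 2 passed, a share near the background, since 24.2% of all genes passed, 11.9% higher and 12.3% lower, and libraries did not overlap for 3 of 8, against 37.3% of all genes.

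NFKB2 rose from an already high 245, 265 and 271 CPM to 317, 322 and 291 CPM (log2 0.24, SE 0.05; edgeR adjusted p = 0.000514). NFKBIA fell from 45.7, 46.8 and 50.5 CPM to 38.6, 39.4 and 41.0 CPM (log2 −0.28, SE 0.09; adjusted p = 0.0146), a call that was lost without ZNF8 knockdown replicate 1 (0.103) or control replicate 3 (0.0817). RELB, the third gene whose libraries did not overlap, was at 3.38, 3.38 and 2.55 CPM in controls and 1.67, 2.23 and 1.29 in the knockdown, and just missed the threshold (log2 −0.86, adjusted p = 0.0559). Removing GC and length trends brought it past the threshold (0.0324), as did a fit without knockdown replicate 2 (0.0498). NFKB1 was at log2 0.49 (adjusted p = 0.0807) and passed without control replicate 3 (log2 0.80, adjusted p = 0.0059), the highest of control libraries at 4.4, 6.25 and 9.35 CPM.

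TNFAIP3 had 42.9 CPM in naive controls and 41.2 CPM with ZNF8 knockdown, and its 95% interval, from −0.25 to 0.12, excludes a change of the size seen with CARHSP1. For NFKBIZ, at 4.54 and 4.33 CPM, the interval ran from −0.59 to 0.40. RELA and NFKBIE lay within 0.1 of 0 on the log2 scale.

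The upstream list had 5 of 23 genes higher and none lower, a share passing near that of all genes (24.2%, with 11.9% higher and 12.3% lower). The 5 genes included the adaptors TRAF5 (16.5 to 28.5 CPM, log2 0.78) and TRAF6 (log2 0.45) and the kinase RIPK1 (log2 0.28). TNIP1 fell (log2 −0.49), and so did MMP9, from 136 ± 11.1 to 51.3 ± 1.47 CPM (n = 3 each; log2 −1.41, edgeR adjusted p = 3.83e-19). The naive marker list (8 genes, none at 0 in controls) went from between 440 and 454 to between 312 and 324 CPM, with KLF17 from 10.7 to 1.49. The list of pluripotent cells (8 genes, none at 0) went from between 5260 and 5390 to between 4770 and 4940 CPM. The primed list (8 genes, 3 under 1 CPM) fell as well, from between 794 and 826 to between 747 and 772 CPM. The ectoderm list (8 genes, LHX2 at 0) went from between 70.8 and 72.7 to between 58.6 and 70.6 CPM. The fibroblast list rose from between 307 and 318 to between 397 and 430 CPM, mostly through COL1A2 (296 to 392 CPM). Within it DCN, LUM and COL3A1 were at or near 0, and PDGFRB and THY1 had lower means. Their part in these results was not tested.

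In day 2 ectoderm, ZIC2 knockdown went with higher levels of 3 NF-kappaB genes. ZIC2, a zinc finger factor of early neural development, fell from 616, 547 and 494 CPM to 261, 263 and 271 CPM (log2 −1.06, SE 0.07; edgeR adjusted p = 1.18e-10). NFKB1, NFKBIE and NFKB2 rose and none of the 8 fell, where 28.1% of all genes tested passed, 15.3% higher and 12.8% lower. The same 3 genes were those whose libraries did not overlap, a share near the background, since 41.2% of all genes did not overlap. With GC and length trends removed, 1 of the 8 passed.

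NFKB1, which encodes p105 and p50, was at 7.48, 8.4 and 7.79 CPM in controls and at 16.6, 12.8 and 11.7 CPM in the knockdown (log2 0.80, SE 0.19; edgeR adjusted p = 0.00327). This call held under every alternative. NFKBIE stood at 3.16, 4.0 and 4.56 CPM in controls and at 8.81, 6.02 and 6.06 CPM in the knockdown (log2 0.81, SE 0.26; adjusted p = 0.0254), with knockdown replicate 1 well above the others. NFKB2 was at 13.8, 8.69 and 9.78 CPM against 16.3, 14.5 and 16.7 CPM (log2 0.58, SE 0.18; adjusted p = 0.0208).

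The last 2 calls were fragile. Here log2 changes ran with GC content (Spearman 0.33 over 14960 genes). With these trends and those in length removed, NFKBIE was at log2 0.54 (edgeR adjusted p = 0.127) and NFKB2 at 0.23 (0.367). NFKBIE was also lost with DESeq2 (adjusted p = 0.0549) and without knockdown replicate 1 (0.139), control replicate 1 (0.0711) or control replicate 2 (0.0684). NFKB2 was lost without knockdown replicate 3 (0.0626), control replicate 2 (0.122) or control replicate 3 (0.0802).

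TNFAIP3 was at 3.95, 3.37 and 2.43 CPM against 5.9, 7.52 and 2.9 CPM in controls, so that control replicate 3 fell among the knockdown libraries. Its log2 change of −0.72 did not pass (edgeR adjusted p = 0.121), but passed without that library (log2 −1.05, adjusted p = 0.0209) and when all H1 groups shared a fit (0.0266). The other genes did not pass, with log2 changes of 0.44 for RELB, 0.14 for NFKBIZ, 0.08 for RELA and −0.04 for NFKBIA, and the interval for RELB, from −0.40 to 1.29, was wide at 1.70 and 2.31 CPM.

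Around these genes, the family member BCL3, a nuclear co-activator that binds p50 and p52, rose from 1.36 ± 0.365 to 3.12 ± 0.492 CPM (n = 3 each; log2 1.22, edgeR adjusted p = 0.0269). Of 15 other induced targets, 4 rose and none fell, namely the protease PLAU (log2 1.36), the survival gene BCL2L1 (log2 1.04), and the cytokines LIF (log2 1.20) and CSF1 (log2 1.03). Of 10 negative regulators 3 fell, the deubiquitinase CYLD (log2 −0.53), RNF11 (log2 −0.34) and TAX1BP1 (log2 −0.22). The remaining lists went both ways. Of 21 upstream genes tested, 4 rose and 2 fell. Of 11 ligands and receptors, 2 rose and 2 fell, with IL1RAP (log2 −1.84) and CD40 (log2 −0.71) among the lower. Of 13 AU-rich element and decay factors, 3 rose and 2 fell. Over all genes tested, 28.1% passed, 15.3% higher and 12.8% lower, so the share of other induced targets that passed is near that of all genes. Marker lists also differed without overlap between ZIC2 knockdown and control. The naive list (8 genes, KLF17 and DNMT3L at or near 0) went from between 4.97 and 6.76 to between 12.1 and 13.3 CPM. This was mostly through KLF5 (1.93 to 6.19 CPM) and TFCP2L1 (1.65 to 4.43 CPM), while DPPA3 (0.353 to 0.216 CPM) and SUSD2 (1.71 to 1.12 CPM) had lower means. The endothelial list (8 genes, EMCN at 0) went from between 109 and 118 to between 64.2 and 72.2 CPM. The list of pluripotent cells (8 genes, none at 0) went from between 6160 and 6630 to between 5200 and 5540 CPM, although the mean of TDGF1 in it was 6.49 CPM in controls and 192 in the knockdown, and the primed list (8 genes, none at 0) from between 3080 and 3210 to between 2420 and 2520 CPM. The ectoderm marker list (8 genes, LHX2 at or near 0) went from between 979 and 1130 to between 767 and 848 CPM, and the fibroblast list (DCN, LUM and COL3A1 at 0) from between 193 and 202 to between 297 and 316 CPM. Their part in these changes was not tested.

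Whether the knockdowns differed was tested directly, as the difference of log2 changes in a fit of all 6 H1 groups. Each knockdown was made in another cell state, so the target and the state cannot be told apart. The change was lower in the CARHSP1 than in the ZNF8 knockdown for 3 of 8 genes, where 17.3% of all genes passed, 8.48% higher and 8.84% lower. They were NFKBIZ (difference −1.62, SE 0.31; edgeR adjusted p = 0.000245), TNFAIP3 (−1.46, SE 0.26; adjusted p = 7.89e-05) and NFKB2 (−0.88, SE 0.12; adjusted p = 6.49e-07). All 3 held under upper quartile scaling, with no filter, with a replicate block, without each library and with GC and length trends removed. The difference for RELB was −0.04 with a 95% interval from −0.92 to 0.83, and for NFKBIA −0.17 with an interval from −0.45 to 0.11. NFKB1 (−0.43, adjusted p = 0.253) passed without naive control replicate 3 (−0.73, adjusted p = 0.0414).

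Against the ZIC2 knockdown, 6 of 8 genes had the lower change in the CARHSP1 knockdown, where 27.5% of all genes passed, 12.2% higher and 15.3% lower. The differences were −1.85 for NFKBIZ, −1.33 for RELB, −1.23 for NFKB2, −1.12 for NFKBIE, −0.72 for NFKB1 and −0.39 for NFKBIA. With GC and length trends removed, which ran in opposite directions in these 2 knockdowns, 3 of 8 passed. NFKBIZ was then at −1.94 (edgeR adjusted p = 4.47e-07), NFKB1 at −0.73 (0.0277) and NFKB2 at −0.68 (0.000741). NFKBIE, at −0.70, was lost (0.0877), as were RELB, at −0.67 (0.303), and NFKBIA (0.0574). NFKBIZ and NFKB2 passed under all the alternatives run. NFKBIA (adjusted p = 0.0481) was also lost under most of the other alternatives. RELB (adjusted p = 0.0185) and NFKB1 (0.0261) were both lost without CARHSP1 knockdown replicate 3, ectoderm control replicate 3 or primed control replicate 3, and the count then fell to 3. RELB was also lost without ZIC2 knockdown replicate 2 (0.0528), and NFKB1 without ZIC2 knockdown replicate 1 (0.104). TNFAIP3 differed by −0.82 and did not pass (adjusted p = 0.0597), but passed without ectoderm control replicate 2 (−1.19, adjusted p = 0.00663) or ZIC2 knockdown replicate 3 (−0.97, adjusted p = 0.0303). Between the ZNF8 and ZIC2 knockdowns 1 gene passed, where 17.9% of all genes did, 7.25% higher and 10.6% lower. It was RELB with −1.29 (adjusted p = 0.0452), a call lost without a low-count filter (0.0934), after removal of the GC and length trends (log2 −0.89, adjusted p = 0.195) and for 8 of the 12 libraries left out in turn (adjusted p from 0.0286 to 0.108).

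The second question was how the genes differ between naive and primed cells. Among H1 controls all 8 tested genes differed, 4 higher and 4 lower in naive cells, and all 8 were free of overlap. This was a comparison in which 71.1% of all genes passed, 35.0% higher and 36.1% lower, and 72.8% did not overlap, so the direction and size for each gene carry the description.

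NFKB2 was the extreme case. It rose from 23.6, 26.3 and 24.6 CPM in primed controls to 245, 265 and 271 CPM in naive controls, which is 10.5-fold (log2 3.40, SE 0.07; edgeR adjusted p = 6.81e-50). TNFAIP3 rose 5.18-fold, from between 7.48 and 9.49 to between 37.0 and 47.6 CPM (log2 2.37, SE 0.13). NFKBIA rose 1.94-fold (log2 0.96, SE 0.10) and RELA 1.47-fold (log2 0.56, SE 0.12).

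The other inhibitors and subunits went the opposite way. NFKBIZ fell 4.38-fold, from 18.3, 19.7 and 21.6 CPM to 3.89, 4.95 and 4.78 CPM (log2 −2.13, SE 0.18; edgeR adjusted p = 5.23e-17). NFKB1 fell 2.90-fold, to the uneven 4.4, 6.25 and 9.35 CPM (log2 −1.54, SE 0.18). RELB fell 2.22-fold (log2 −1.15) and NFKBIE 1.64-fold (log2 −0.71). Thus the 2 precursor genes, NFKB1 and NFKB2, moved in opposite directions. Each of these 8 calls held under every alternative.

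In H9 cells, 3 genes were higher and 2 lower in the naive state, where 51.5% of all genes passed, 25.4% higher and 26.1% lower, and 5 of 8 were free of overlap, against 57.7% of all genes. NFKB2 rose from 28.9, 31.5 and 40.2 CPM to 65.1, 81.3 and 66.5 CPM (log2 1.08, SE 0.13; edgeR adjusted p = 8.05e-07). TNFAIP3 rose from 3.23, 3.86 and 4.24 CPM to 7.41, 7.37 and 7.28 CPM (log2 0.97, SE 0.20; adjusted p = 0.000467). NFKBIZ fell from 14.4, 14.1 and 12.0 CPM to 4.06, 3.91 and 6.32 CPM (log2 −1.49, SE 0.19; adjusted p = 2.87e-06). These 3 held under every alternative.

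RELA was higher in naive H9 cells (log2 0.44, edgeR adjusted p = 0.00901), a call lost without naive replicate 2 (0.0526), and RELB was lower (log2 −0.54, adjusted p = 0.0231), a call lost with DESeq2 (0.0756) and without primed replicate 2 (0.0508), primed replicate 3 (0.0758), naive replicate 2 (0.0505) or naive replicate 3 (0.121). NFKB1, with 9.34 CPM in primed and 8.95 CPM in naive cells, did not pass, and its 95% interval from −0.42 to 0.30 excludes the fall seen in H1. NFKBIE (log2 −0.14) did not pass. NFKBIA (log2 0.23, adjusted p = 0.171) passed without naive replicate 3 (log2 0.39, adjusted p = 0.0229), the lowest of 29.9, 28.5 and 20.5 CPM.

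**Figure D4:**
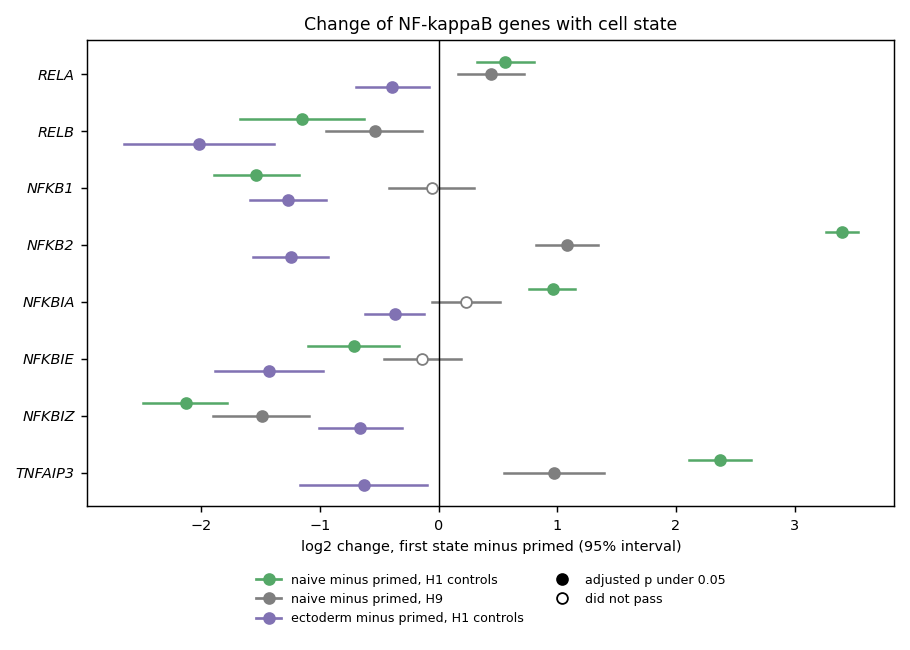
Log2 change (x axis) of the 8 tested genes for naive minus primed cells in H1 and in H9 and for day 2 ectoderm minus primed cells in H1, with 95% intervals from 3 libraries a group; filled points passed an adjusted p of 0.05. NFKB2 and TNFAIP3 lie above 0 and NFKBIZ below 0 in both naive comparisons, and all 8 genes lie below 0 in ectoderm; both H1 comparisons use the same primed controls.

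The difference between lines was tested in a fit of the 4 groups. It passed for 6 of 8 genes, 3 with a higher and 3 with a lower change in H9, where 49.9% of all genes passed, 26.2% higher and 23.6% lower. The rise of NFKB2 was smaller in H9 by log2 2.32 (value −2.32, SE 0.15; edgeR adjusted p = 2.69e-14), that of TNFAIP3 by 1.41 (−1.41, SE 0.24; adjusted p = 1.08e-05), and the change of NFKBIA was lower (−0.74, SE 0.17; adjusted p = 0.000527). NFKB1 differed by 1.47 (SE 0.27; adjusted p = 3.88e-05). NFKBIZ (0.63, adjusted p = 0.0474) and NFKBIE (0.56, adjusted p = 0.0424) passed narrowly. Both were lost with no low-count filter (0.0761 and 0.102) and with a replicate block (0.0599 and 0.0532), NFKBIE also after removal of the GC and length trends (log2 0.28, adjusted p = 0.297), and the adjusted p reached 0.282 and 0.113 when a library was left out, without naive H9 replicate 3 and replicate 2. The lines also differed in state markers. From primed to naive cells, the mean of the summed naive list went from 23.6 to 116 CPM in H9 and from 38.5 to 445 CPM in H1 controls. That of the primed list went from 3610 to 1470 CPM in H9 and from 2780 to 805 CPM in H1 controls. Line, count table, the doxycycline and control label of H1 and these marker differences go together, so they cannot be told apart.

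In the order of groups by level, NFKB2 stood at 310 ± 16.9 CPM in ZNF8 knockdown naive cells, 261 ± 13.6 in naive H1 controls, 71.0 ± 8.99 in naive H9 cells and 33.5 ± 5.95 in primed H9 cells (n = 3 each). Each of these groups lay above the next without overlap, down to primed H1 controls at 24.8 ± 1.36 CPM. For TNFAIP3 both naive H1 groups, at 42.9 and 41.2 CPM, overlapped each other and stood apart from all others, the next being primed H1 controls at 8.22 CPM and naive H9 cells at 7.35 CPM. Primed H9 cells had 3.78 ± 0.509 CPM of TNFAIP3, beside 2.86 ± 0.163 CPM in the CARHSP1 knockdown and 8.22 ± 1.1 CPM in primed H1 controls (n = 3 each). For NFKBIZ, primed H9 cells had 13.5 ± 1.28 CPM, between primed H1 controls at 19.8 ± 1.65 and the knockdown at 5.95 ± 1.69 CPM. Levels across the 2 tables were scaled separately.

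Neighbouring family members added to the naive pattern. BCL3 rose from 1.57 ± 0.314 to 30.1 ± 4.43 CPM in naive H9 cells (n = 3 each; log2 4.25, edgeR adjusted p = 1.58e-12) and from 7.88 ± 0.229 to 18.7 ± 2.69 CPM in naive H1 controls (log2 1.24, adjusted p = 5.15e-10). REL, which encodes c-Rel, was lower in naive H9 cells (log2 −0.58) and higher in naive H1 controls (log2 0.92), and the test of this difference gave −1.50 (adjusted p = 0.000122). Of other induced targets, 10 of 17 rose and 4 fell in naive H9 cells, and 9 of 19 rose and 5 fell in naive H1 controls. CFLAR, an inhibitor of caspase-8, rose in both lines (log2 3.27 in H9 and 3.10 in H1), and TNFAIP2 fell in both (log2 −2.79 and −3.74). Of 14 ligands and receptors tested in each line, 8 fell and 3 rose in naive H1 controls, and 7 fell and 2 rose in naive H9 cells. Over all genes tested, 25.4% rose and 26.1% fell in naive H9 cells, and 35.0% rose and 36.1% fell in naive H1 controls. CD40 went from 15.3 to 4.38 CPM in H9 and from 11.7 to 0.0926 CPM in H1.

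In day 2 ectoderm all 8 tested genes were lower than in primed H1 controls, where 62.8% of all genes passed, 32.1% lower and 30.7% higher. Libraries did not overlap for 6 of 8, the exceptions being TNFAIP3 and RELA, against 65.8% of all genes. The median log2 change was −0.95, beside 0.0 over all genes. The primed controls here are those of the CARHSP1 and H1 naive comparisons, and the ectoderm controls are those of the ZIC2 comparison, so these results are not independent of each other.

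RELB fell from 7.48, 5.18 and 7.88 CPM to 1.44, 2.25 and 1.41 CPM (log2 −2.02, SE 0.31; edgeR adjusted p = 1.69e-06). NFKBIE fell from 9.4, 11.6 and 11.2 CPM to 3.16, 4.0 and 4.56 CPM (log2 −1.43, SE 0.22). NFKB1 went from 18.7, 18.9 and 19.4 CPM to 7.48, 8.4 and 7.79 CPM (log2 −1.27, SE 0.16), and NFKB2 was at log2 −1.24 (SE 0.15). NFKBIZ (log2 −0.66, adjusted p = 0.00135) and NFKBIA (log2 −0.37, adjusted p = 0.00886) fell less.

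For TNFAIP3 and RELA the calls were not stable. TNFAIP3 (log2 −0.63, edgeR adjusted p = 0.0372) was lost with DESeq2 (0.124) and without ectoderm control replicate 3 (log2 −0.28, adjusted p = 0.316) or any 1 of the primed controls (0.056, 0.0553 and 0.167 without replicates 1, 2 and 3). RELA (log2 −0.39, adjusted p = 0.0259) was lost with DESeq2 (0.113), after removal of GC and length trends (log2 −0.13, adjusted p = 0.478) and without ectoderm control replicate 3 (0.154) or primed control replicate 1 (0.338). The log2 changes ran against GC content (Spearman −0.35 over 15346 genes). The other 6 genes passed with the trends removed, though 3 moved far, RELB to log2 −1.15, NFKBIE to −0.90 and NFKB2 to −0.61. NFKB1 was then the gene with the lowest value, at −1.30. In the wider pathway BCL3 (log2 −2.58), TRAF3 (log2 −1.45), RIPK1 (log2 −1.19) and IER3 (log2 −2.62) fell as well. Of 22 upstream genes tested, 6 rose and 7 fell, where 30.7% of all genes were higher and 32.1% lower.

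Across the 18 H1 libraries the genes fell into 2 patterns, which largely follow the cell states and are given as a description. TNFAIP3, NFKBIA, NFKB2 and RELA varied together in log2 CPM, with Pearson correlations from 0.877 for NFKBIA with RELA to 0.975 for TNFAIP3 with NFKBIA. NFKB1, NFKBIE and RELB correlated with each other at 0.579 to 0.734. NFKBIZ ran against NFKB2 (−0.698) and was only loosely tied to NFKB1 (0.404) and RELB (0.348).

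Among 15267 genes with a mean of at least 1 CPM, the nearest to NFKB2 were HPGD (0.997), NPNT (0.996) and TRIM26 (0.995), and those nearest to TNFAIP3 were RCOR3 (0.98), ESYT2 (0.978) and DEPTOR (0.976). For NFKBIA they were NATD1 (0.98), TBC1D23 (0.979) and PSORS1C2 (0.979), and for RELA GALNS (0.959), NEU1 (0.952) and LMF2 (0.948). NFKB1 was nearest to SH3GL1 (0.971), BCAR1 (0.953) and CEP170B (0.952), and NFKBIE to LRRC61 (0.919), TMEM268 (0.914) and SEMA6A (0.91). For NFKBIZ and RELB the nearest genes were less close, with PIK3CD (0.904), P3H2 (0.89) and CASP2 (0.877) for NFKBIZ and PCAT6 (0.901), RASD2 (0.896) and LINC01356 (0.893) for RELB.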

How the data were processed

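The authors deposited raw counts for each gene, as whole numbers with no normalization, in 1 table for 18 H1 and 1 for 6 H9 libraries. The H1 table also gives a gene length in bases (another deposited value, from the authors), used for CPM per kb, and 27 columns that match no sample described here and were not used. The tool and build named are HISAT2 and GRCh38, per the submitters' processing notes, and a stranded mRNA kit was used, per the labels' protocols. No source used here names the counting tool, its strand setting or the annotation. Gene positions are from GENCODE 29.

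Each comparison was fitted on its 2 groups with edgeR 4.0.16 in R 4.3.3 (filterByExpr, TMM, 2-sided quasi-likelihood F test, Benjamini-Hochberg adjustment over all genes tested, threshold 0.05). Differences between knockdowns used all 6 H1 groups in 1 fit, and the difference between lines used 4 groups. SEs derive from the F statistic. Scripts were tested on simulated data. Replicate pairs differed by more than sampling noise (chi-square per degree of freedom 2.44 to 9.16), so each library counts as 1 sample. Alternatives were DESeq2 1.42.0, upper quartile scaling, no low-count filter, a replicate block, all groups in 1 fit, removal of GC and length trends, and leaving out each library. For differences between comparisons, removal of GC and length trends was added after seeing the data, and DESeq2 and the fit of all groups were not run.

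The 9 genes and the lists were chosen with earlier results of these data known, and genes in 2 lists are counted in each. Named genes were the 9, the 3 targets, in each list up to 4 genes that passed, ranked by adjusted p, the 3 genes nearest to each of the 9, and markers. Genes named outside this rule were chosen after their values were seen. A marker gene, with the summed marker list it leads, and a 3′ untranslated site are not reported here.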

Additional observations from a re-analysis of the deposited data

Results flagged for a closer look

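The change from primed to naive cells differed between the lines for 6 genes, by a test of the difference itself (edgeR, H9 minus H1). It was −2.32 for NFKB2, −1.41 for TNFAIP3, −0.74 for NFKBIA, 1.47 for NFKB1, 0.63 for NFKBIZ and 0.56 for NFKBIE. Of all genes tested, 49.9% differed. NFKB2, TNFAIP3 and NFKBIZ moved the same way in both lines with another size. NFKB1 and NFKBIE passed in H1 with a fall and did not pass in H9, and NFKBIA passed in H1 with a rise. For NFKBIZ and NFKBIE the adjusted p ranged from 0.0276 to 0.282 and from 0.0282 to 0.113 when a library was left out.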

How the results depend on the processing

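All 5 CARHSP1 calls, all 8 for naive against primed H1 and the first 6 named for ectoderm kept their direction, and 1018 of the values by gene kept direction and side of the threshold, 90 no longer passed, 16 newly passed and 36 changed sign. NFKBIA in ectoderm missed the threshold only with GC and length trends removed and a replicate block (adjusted p = 0.0516). Libraries of equal replicate number were at most weakly paired (correlations of deviations between −0.122 and 0.148). In the CARHSP1 comparison every knockdown library correlated best with the control of its own number, but only at 0.011, 0.028 and 0.023. In the other comparisons this held for some replicates and not for others. With the replicate block, none of the 8 genes passed for ZNF8 minus ZIC2 (0, also 0 with no low-count filter), RELB then having edgeR adjusted p = 0.0514. NFKBIE in the ZNF8 knockdown was at −0.0039 with the block. It was at −0.0049 with upper quartile scaling, −0.0032 with GC and length trends removed and −0.02 with the trends removed and the block. In the ZIC2 knockdown, 1 gene passed with GC and length trends removed, with or without the replicate block; RELA was then at −0.06 and −0.07 with the block, and RELB at −0.01 in both. With these trends removed from the differences, chosen after seeing the data, 3 genes passed for CARHSP1 minus ZIC2 and 0 for ZNF8 minus ZIC2, with or without the block; RELA for CARHSP1 minus ZIC2 was at 0.05 and 0.08 with the block, and RELB for CARHSP1 minus ZNF8 at 0.21 and 0.2.

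Leaving out 1 library gave these ranges. Genes passing in the CARHSP1 comparison were 2045 to 3410 (2096 without knockdown replicate 2 and 2045 without control replicate 1). NF-kappaB genes passing were 1 to 3 for ZNF8, 1 to 3 for ZIC2, 3 to 5 for H9, 3 to 7 for CARHSP1 minus ZIC2 and 0 to 2 for ZNF8 minus ZIC2. Values not past the threshold that changed sign ranged over −0.23 to 0.07 (RELA, CARHSP1), −0.16 to 0.02 (TNFAIP3, ZNF8), −0.21 to 0.08 (NFKBIZ, ZNF8), −0.09 to 0.12 (NFKBIE, ZNF8), −0.03 to 0.17 (RELA, ZNF8), −0.06 to 0.37 (NFKBIZ, ZIC2), −0.1 to 0.02 (NFKBIA, ZIC2), −0.05 to 0.18 (RELA, ZIC2), −0.2 to 0.06 (NFKB1, H9), −0.21 to 0.15 (RELB, CARHSP1 minus ZNF8), and −0.11 to 0.13 (RELA) and −0.52 to 0.01 (NFKB1) for ZNF8 minus ZIC2. The causes were not tested. Depth limits BIRC3, TNF and LTB, which were not tested, and RELB, whose levels near 2 CPM gave wide intervals.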

Other observations

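Of transcripts that NF-kappaB is known to induce, IL6 was picked out here after its values were seen. It was at 12.1 ± 0.756 CPM in naive H1 controls and 15.0 ± 0.853 CPM in naive H1 cells with ZNF8 knockdown (n = 3 each, 397 and 662 counts). Primed H1 controls had 12 counts (0.468 ± 0.524 CPM), primed H9 cells 3, naive H9 cells 18, and both ectoderm groups 0. The H1 naive groups with the most IL6 reads are those with the highest NFKB2 and TNFAIP3, and a link between them was not tested. CXCL1 and CXCL2, also among the other induced targets, went the other way at low counts. They had 1.37 ± 0.8 and 0.671 ± 0.584 CPM in primed H1 controls, against 0 and 0.0853 ± 0.0846 CPM in naive H1 controls (n = 3 each). IL1A was also highest with ZNF8 knockdown, at 4.67 ± 1.23 CPM against 2.59 ± 0.127 CPM in its controls (n = 3 each; log2 0.83, edgeR adjusted p = 0.023). In H9 cells IRAK4, a kinase of the interleukin-1 and Toll-like receptor pathways, stood at 8.92 ± 0.37 CPM in the naive state and at 0.0347 ± 0.0602 CPM in the primed state (n = 3 each). In H1 it had 16.1 ± 0.883 CPM in naive controls and 10.1 ± 1.16 CPM in ectoderm controls (n = 3 each). Its level in primed H1 cells is not given here, so the H9 values do not speak for primed cells at large.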
